A study of Columba livia with 12 samples.

Results

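The livers of 14-day-old pigeons were set against the livers of all other ages in a small RNA sequencing study of white king pigeons, a breed of the domestic pigeon (Columba livia). They were chosen by their age label and are 3 of 12 libraries, with 1 bird per library. The other 9 libraries came from 3 birds each at 1 day (1d), 28 days (28d) and 2 years (2y). The 1d, 14d and 28d birds were squabs of mixed sex, the 2y birds were parents, and the sex of each sequenced bird is not given. All livers were sampled at the same anatomical site, and no agent, allele or diet is named for any group. The 1d libraries of replicates 2 and 3 carry descriptions that name birds of 2 and 3 days, while their title and stage label say 1d. The question put to the data was which miRNAs stand at a high or a low at 14 days only, with every 14d library beyond every library of every other age.

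A miRNA is a short RNA cut from a hairpin precursor, and either the 5p or the 3p arm of the hairpin can become the mature molecule that guides repression of mRNAs. Bases near its 5′ end, the seed, pair with the targets, so miRNAs of one family share targets. In the vertebrate liver a few hepatocyte miRNAs supply most of the mature molecules, while miRNAs of vessel, blood and bile duct cells are read from the same tissue.

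Many miRNAs of the 14d livers lay beyond their levels in all 9 other libraries. Far fewer (2 above and 6 below) passed a stricter test against each other age singly, given further on. Of 1039 mature names, 345 had enough counts to be tested, and 138 of these (40.0%) differed between 14d and the mean of the other 3 ages. At 14d 83 (24.1%) were higher and 55 (15.9%) lower. The test is the quasi-likelihood test of edgeR at an adjusted p (Benjamini-Hochberg) under 0.05. A miRNA is called a peak below where it passed this test and each 14d library lay above all 9 others, and a dip where each lay below, both in CPM and relative to the plain total count. CPM are counts scaled to a common library size, which is corrected by the trimmed mean of M-values (TMM). There were 44 peaks (12.8% of tested miRNAs) and 11 dips (3.19%). The peaks held 9.74 to 13.6% of the counts of a 14d library, against 1.58 to 3.34% (median 1.92%) of any other. The dips held 11.8 to 14.0% at 14d, against 35.9 to 43.9% (median 40.7%) elsewhere. These shares describe miRNAs that were picked by the same values.

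The choice of scaling bears on the balance of the 2 directions. With the total count in place of TMM, 119 miRNAs (34.5%) were higher and 22 (6.38%) lower, so that 84.4% of the calls were higher, against 60.1% with TMM. The balance also turned with no filter on low counts (38 higher and 43 lower), with the stricter filter of at least 100 counts in 3 libraries (48 and 54) and without 14d replicate 1 (35 and 46). The median log2 fold change over all 345 was 0.37 with TMM and 0.97 with the total count, a shift of 0.60. Each peak and each dip lies beyond the other libraries in both scalings, and the values given below are those with TMM unless the total count is named.

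The 12 libraries held 3100273 to 9393075 counts, with 3741429 to 7088182 at 14d. The total of counts did not pass a test of 14d against the rest (adjusted p = 0.778, exact two-sided permutation test over 220 choices of 3 libraries). The 14d livers had more kinds of miRNA, with 502 to 504 names with a count, against 303 to 445 (median 381) in the others. That difference of 123 names was the largest of all 220 choices (exact permutation p = 0.00455, the smallest this design allows, and adjusted p = 0.0227 over 5 measures). Thinned to 3100273 counts each, the 14d libraries kept 477 to 496 names and the others 303 to 437 (exact permutation p = 0.00455). On the second principal component of log2 CPM, which held 22% of the variance, the 14d libraries lay at -17.2 to -14.8 and all others at 0.384 to 17.0. The first component, with 31% of the variance, placed 14d (-12.4 to -9.22) near 1d (-14.8 to -13.9). The 28d and 2y libraries lay at 10.1 to 14.5 on it. The p-values measure the spread between these birds, and edgeR put the biological coefficient of variation at 0.807 over all miRNAs.

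**Figure D1:**
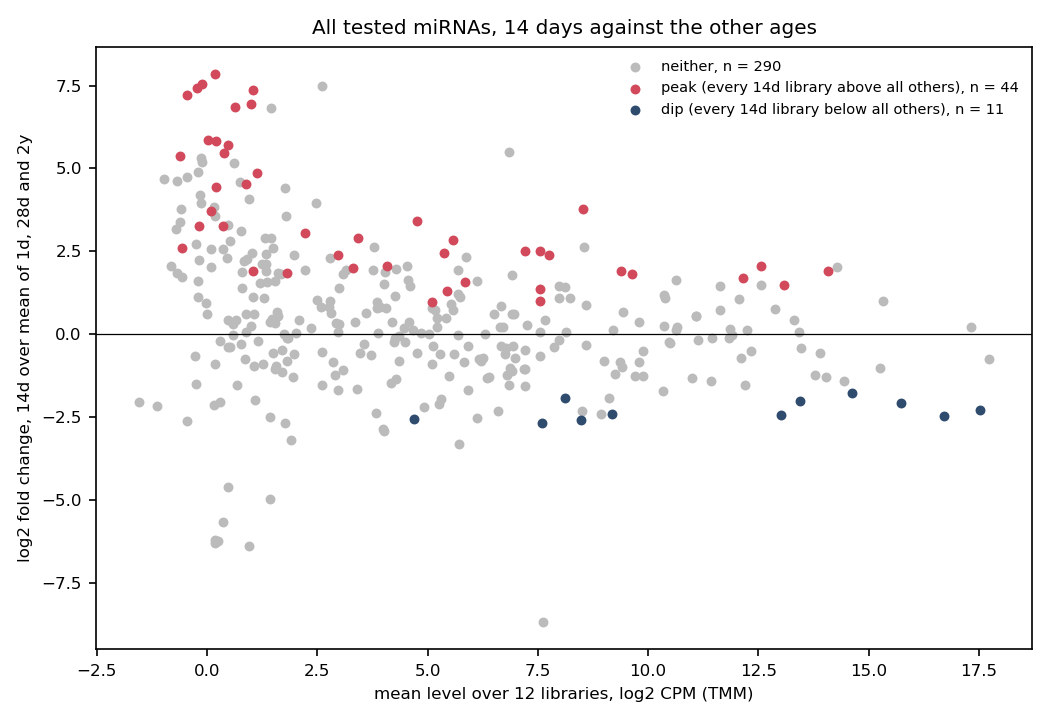
Each point is 1 of the 345 tested miRNAs, with the log2 fold change of 14d over the mean of the other ages on the vertical axis and the mean level over the 12 libraries (log2 CPM) on the horizontal axis. Peaks and dips are coloured, with the 44 peaks above 0 and the 11 dips below it.

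All 11 dips carry established pigeon names, and 10 of them reached 100 CPM in the mean of the other libraries. Of the peaks, 15 reached 100 CPM at 14d, all with pigeon names, and 21 stayed under 10 CPM. A rare miRNA could enter the test through its counts at 14d alone, and with the stricter filter there were 24 peaks and 14 dips. The 44 peaks comprised 30 pigeon names, 7 names taken over from other species by sequence conservation and 7 predicted names. In 25 of the 44 peaks the 1d mean was the nearest of the other ages, in 10 the 2y mean and in 9 the 28d mean, while in all 11 dips it was the 1d mean.

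Among the peaks of at least 100 CPM, miRNAs known from epithelia and from neurons in mammals stood beside members of let-7, miR-181 and miR-125. The epithelial miRNA miR-205a-5p had 2252, 486 and 518 CPM in the 14d livers, against 2.67 to 363 CPM (median 44.9) in the others. It rose 13.7-fold (log2 fold change 3.78 ± 0.73 SE, adjusted p = 0.00301). The 14d livers were not alike in it: replicate 1 stood far above the other birds of its age, and without that library the rise was 6.14-fold. Set against 1d alone, with all libraries, miR-205a-5p did not pass (log2 fold change 1.81, adjusted p = 0.212). miR-31-5p, also expressed in epithelia of mammals, was at 195, 54.9 and 59.4 CPM at 14d, against 8.85 to 41.4 CPM (median 16.1) in the others. It rose 5.45-fold (log2 fold change 2.45 ± 0.35 SE, adjusted p = 0.000777), again with replicate 1 far above the rest, and 2.92-fold without that library.

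The miR-200 family keeps epithelial cells epithelial in mammals by repressing ZEB factors. Its member miR-200b-3p was at 351, 251 and 286 CPM at 14d, against 86.2 to 213 CPM (median 139.7) in the others. It rose 1.99-fold (log2 fold change 0.99 ± 0.24 SE, adjusted p = 0.00879), a call that ended without 14d replicate 1 (adjusted p = 0.0541), with no filter (adjusted p = 0.138) and with 1 mean for the 9 other libraries (adjusted p = 0.0677). Its minor arm miR-200b-5p was a peak as well, at 32.1, 15.4 and 18.6 CPM, against 2.39 to 9.39 CPM (median 5.06) in the others. For both arms the other library nearest to 14d was 28d replicate 1. The other tested arms of the family did not pass, with adjusted p = 0.887 for miR-200a-3p, 0.482 for miR-200a-5p and 0.343 for miR-429-3p. miR-200a-3p averaged 263 CPM at 14d and 286 CPM over the other libraries.

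miR-205a-5p, miR-31-5p and miR-200b-3p belong to a list of biliary and other epithelial markers. Like all lists here, it was chosen with earlier results of these data known. Of its 11 tested members 8 were higher and 0 lower at 14d, beside 24.1% higher and 15.9% lower over all tested miRNAs. Both arms of miR-200b are counted among the 8. Among the 8 is miR-96-5p, with 36, 17 and 17 counts at 14d and 0 to 8 elsewhere. It could enter the test through its 14d counts alone, and its call ended in 4 of 24 settings. miR-205b-5p, another of the 8, averaged 3.79 CPM at 14d and 2.48 CPM over the other libraries. The list's median log2 fold change was 1.99, against 0.37 for all tested miRNAs, and with the total count again 8 were higher and 0 lower (34.5% and 6.38% over all). Its summed level was 1222 to 3509 CPM at 14d and 618 to 1051 CPM elsewhere. miR-205a-5p made up 34.1% of its counts over all libraries, and 2252 of the 3509 CPM in 14d replicate 1. The members miR-182-3p and miR-183-3p were at 0 in every 14d library. In the miR-183 cluster, known from sensory and other epithelia, miR-182-5p was at 179, 79.2 and 78.0 CPM at 14d, against 14.1 to 77.0 CPM (median 22.1) in the others, and rose 3.86-fold (log2 fold change 1.95 ± 0.38 SE, adjusted p = 0.00329). Without 14d replicate 1 that call ended (adjusted p = 0.0544), and miR-182-5p was no peak, since the groups overlapped in total-count CPM. miR-183-5p rose 4.94-fold (adjusted p = 0.00253), or 2.73-fold without that library. In bulk tissue more cells of a type cannot be told apart from more RNA per cell, and the part of bile duct or other epithelial cells in the result was not tested.

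Both miRNAs of the neural list were higher at 14d. miR-9-5p, a miRNA of the mammalian brain, was at 395, 396 and 603 CPM at 14d, against 21.5 to 305 CPM (median 41.6) in the others. It rose 5.75-fold (log2 fold change 2.52 ± 0.68 SE, adjusted p = 0.0148). The highest other library, 28d replicate 1, was far above the other 28d livers at 27 and 21.5 CPM, and without it the rise was 8.68-fold. The call ended without 14d replicate 1 (adjusted p = 0.0568) or replicate 3 (adjusted p = 0.0690). Set against single ages, miR-9-5p passed for 2y (adjusted p = 0.0223) but not for 1d (adjusted p = 0.165) or 28d (adjusted p = 0.139). Its other arm, miR-9-3p, was at 55.7, 35.8 and 66.0 CPM at 14d, against 6.91 to 37.1 CPM (median 8.32) in the others, and rose 4.17-fold (log2 fold change 2.06 ± 0.46 SE, adjusted p = 0.00606). That arm was no peak, since 14d replicate 2 lay below 28d replicate 1.

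miR-124-3p, known from neurons in mammals, was low everywhere. It was at 46.5, 19.2 and 23.7 CPM in the 14d livers, against 0 to 13.6 CPM (median 2.31) in the others. It rose 7.53-fold (log2 fold change 2.91 ± 0.94 SE, adjusted p = 0.0339), but the call ended in 13 of 24 other settings, among them the omission of any single 1d, 14d or 2y library. Its counts at 28d were 117, 0 and 0. The fit without 28d replicate 1 gave 36.1-fold, which is no measured rise, since 28d then held no count. All 3 tested neural members were higher, beside 24.1% of all tested miRNAs, with a median log2 fold change of 2.52. The summed level of the list was 452 to 693 CPM at 14d and 29.1 to 356 CPM elsewhere, and the part of nerve fibres in the liver was not tested. miR-128-3p, enriched in mouse neurons and not on that list, was far more abundant, at 10164, 9988 and 7955 CPM at 14d, against 1521 to 4065 CPM (median 3096) in the others. It rose 3.24-fold (log2 fold change 1.70 ± 0.24 SE, adjusted p = 0.000777). The 14d libraries lay well clear of the rest, and its minor arm miR-128-5p, at 38.3, 35.3 and 36.4 CPM, against 3.36 to 21.8 CPM (median 6.25) in the others, was a peak too.

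**Figure D2:**
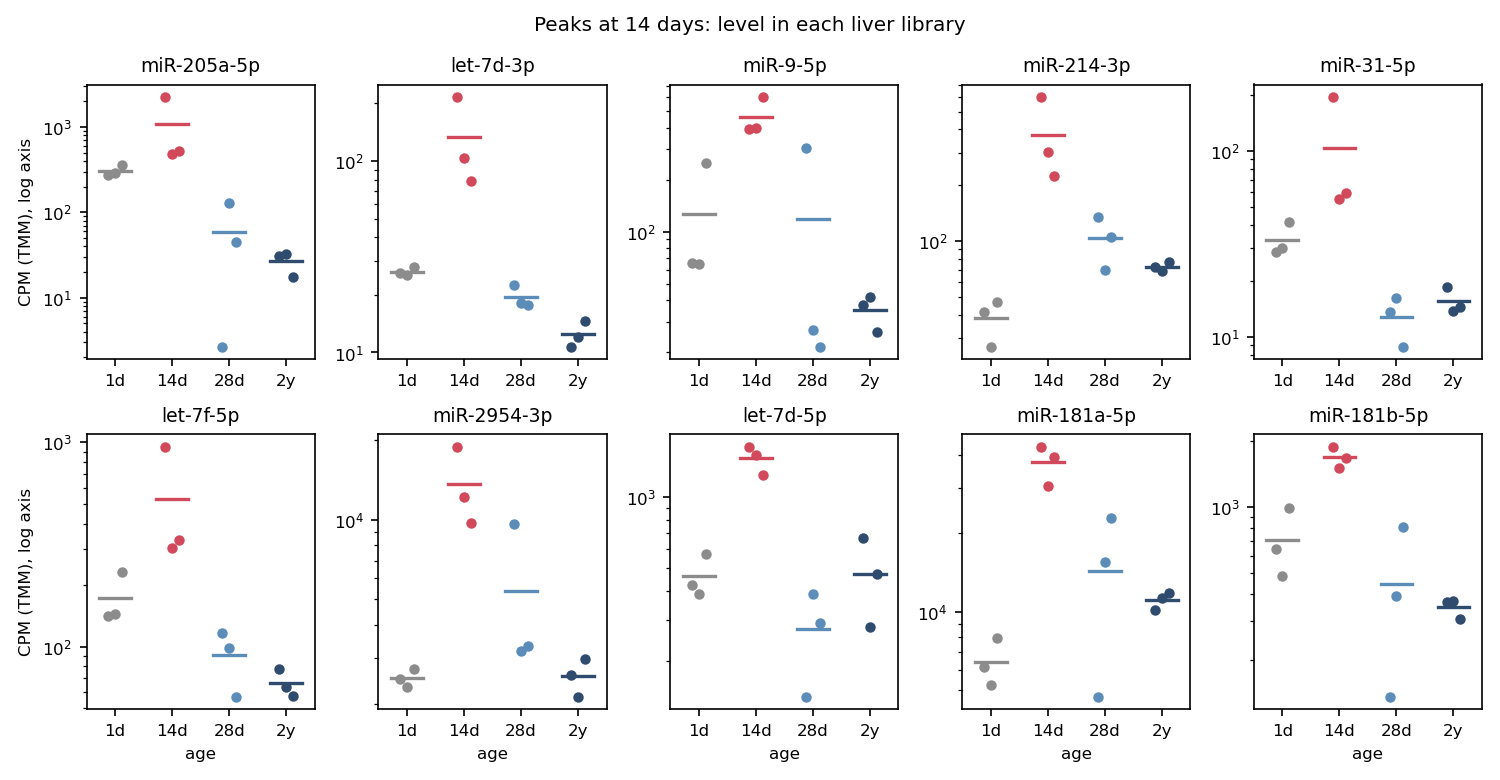
Level of each of 10 peaks (CPM, log axis) in every library, by age. Points are single livers and horizontal lines the means of 3, and in each panel the lowest 14d liver lies above all 9 others, by as little as 1.01 times in miR-2954-3p.

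The let-7 family, first found as a timer of development in worms and linked to differentiation in vertebrates, held 3 of the peaks. let-7d-3p had 216, 104 and 78.8 CPM at 14d, against 10.7 to 27.8 CPM (median 18.1) in the others. It rose 7.15-fold (log2 fold change 2.84 ± 0.26 SE, adjusted p = 8.80e-05), and the lowest 14d liver held 2.83 times the level of the highest other. The opposite arm let-7d-5p was at 1637, 1505 and 1239.7 CPM at 14d, against 141 to 666 CPM (median 387) in the others, and rose 3.75-fold (log2 fold change 1.91 ± 0.30 SE, adjusted p = 0.00106). Both arms of let-7d were therefore peaks. let-7f-5p was at 949.6, 305 and 331 CPM at 14d, against 56.9 to 233 CPM (median 98.7) in the others. It rose 5.22-fold (log2 fold change 2.39 ± 0.34 SE, adjusted p = 0.000777), or 3.02-fold without 14d replicate 1. Of 14 tested let-7 arms 4 were higher and 2 lower, near the 24.1% and 15.9% of all tested miRNAs, with a median log2 fold change of 0.13. With the total count 5 were higher and 0 lower, beside 34.5% and 6.38% of all. The 2 arms lower with TMM, let-7a-3p and let-7e-3p, averaged 80.7 and 80.3 CPM at 14d and 169 CPM each over the other libraries. Reads may be shared between them, which was not tested. The most abundant member, let-7a-5p, averaged 10514 CPM at 14d and 6536 CPM over the other libraries and did not pass (adjusted p = 0.106), but passed as higher with the total count (adjusted p = 0.00265).

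The peaks with the most counts came from miR-181, miR-2954 and miR-125. miR-181a-5p, known for its part in mouse lymphocyte development, was at 42977, 30525 and 39249 CPM at 14d, against 4733 to 22832 CPM (median 10179) in the others. It rose 3.72-fold (log2 fold change 1.90 ± 0.33 SE, adjusted p = 0.00197). It took up 4.76 to 5.61% of all counts in the 14d livers and 0.451 to 1.27% in all others. miR-181b-5p was at 1891, 1519 and 1676 CPM at 14d, against 135 to 993 CPM (median 391) in the others, and rose 3.55-fold (log2 fold change 1.83 ± 0.38 SE, adjusted p = 0.00441). Set against 1d alone it did not pass (log2 fold change 1.26, adjusted p = 0.0919). Both arms of miR-181a were higher, but the minor arm miR-181a-3p overlapped the 1d livers, at 169, 129.9 and 141 CPM at 14d, against 43.7 to 132 CPM (median 96.4) in the others. Of the 4 tested miR-181 arms 3 were higher and 0 lower, beside 24.1% and 15.9% of all tested miRNAs.

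miR-125-5p, the relative of the worm developmental timer lin-4, was at 22879.7, 13194 and 12224 CPM at 14d, against 2785 to 8515 CPM (median 6797) in the others. It rose 2.82-fold (log2 fold change 1.50 ± 0.19 SE, adjusted p = 0.000631). Over the 9 tested arms of the list, which also holds miR-99, miR-100 and miR-10, 2 were higher and 1 lower, near the 24.1% and 15.9% of all tested miRNAs, with a median log2 fold change of 0.41 against 0.37 for all tested miRNAs.

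miR-2954 is found in birds, where it is encoded on the Z chromosome and is higher in males. miR-2954-3p was at 18877, 12231 and 9725 CPM at 14d, against 2140.4 to 9620.2 CPM (median 2732) in the others. It rose 4.17-fold (log2 fold change 2.06 ± 0.31 SE, adjusted p = 0.000994). Its margin was the narrowest among the peaks of at least 100 CPM: the lowest 14d library was 1.01 times the highest other library, 28d replicate 1, while the rest reached at most 3315 CPM. miR-2954-5p was at 226, 116 and 80.7 CPM at 14d, against 7.24 to 76.9 CPM (median 23.3) in the others, and rose 5.02-fold (log2 fold change 2.33 ± 0.50 SE, adjusted p = 0.00476). That arm was no peak, since the groups overlapped in total-count CPM. Without 14d replicate 1 the call of miR-2954-5p ended (adjusted p = 0.0580). The part of the birds' sex was not tested.

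Among miRNAs of connective tissue cells, miR-214-3p, which in mammals is made from one transcript with miR-199, was a peak. The mesenchymal list it belongs to was mixed, with 2 of 8 tested arms higher and 3 lower. miR-199-3p was lower (adjusted p = 0.00601) and miR-199-5p did not pass (log2 fold change 0.14, adjusted p = 0.693). miR-214-3p was at 599, 302 and 224 CPM at 14d, against 26.8 to 135 CPM (median 69.5) in the others. It rose 5.68-fold (log2 fold change 2.51 ± 0.29 SE, adjusted p = 0.000544), with a clear gap between the groups. miR-30c-3p, the minor arm of miR-30c, was at 323, 283 and 355 CPM at 14d, against 47.9 to 259 CPM (median 169) in the others, and rose 2.56-fold (log2 fold change 1.36 ± 0.27 SE, adjusted p = 0.00349). The 2y livers came nearest to 14d in it. miR-1552-5p, for which no role is given here, was at 146, 107 and 87.8 CPM at 14d, against 19.9 to 74.8 CPM (median 37.8) in the others, and rose 2.98-fold (log2 fold change 1.58 ± 0.30 SE, adjusted p = 0.00288).

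Another 7 peaks with pigeon names lay between 10 and 100 CPM. Beside miR-124-3p, miR-128-5p and miR-200b-5p these were miR-551b-5p, miR-365-5p, miR-1451-5p and miR-1467-5p. The largest change among them was in miR-551b-5p, at 119, 42.3 and 79.0 CPM in the 14d livers, against 0.133 to 21.5 CPM (median 9.0) in the others, a rise of 10.7-fold (log2 fold change 3.42 ± 0.59 SE, adjusted p = 0.00194). miR-365-5p was at 19.7, 12.7 and 8.69 CPM, against 0.632 to 2.78 CPM (median 1.69) in the others, and rose 8.30-fold (adjusted p = 0.00103). miR-1451-5p rose 2.46-fold (adjusted p = 0.00397) and miR-1467-5p 1.95-fold (adjusted p = 0.00650), the last a call that ended without 14d replicate 1 (adjusted p = 0.0578).

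Among the rarest names, 4 of all 1039 had at least 10 counts in each 14d library and 0 counts in all 9 other libraries. No name showed the reverse, at least 10 counts in each of the 9 other libraries and 0 counts at 14d. That rule spans 3 ages and asks more of a name, so the 2 numbers cannot be compared. One of the 4 is miR-1791-3p, with 20, 20 and 44 counts at 14d, which by a floor of 3 counts over the 9 other libraries together was at least 64.6-fold higher at 14d. The others are 1 conserved and 2 predicted names, at least 51.3-fold to 79.4-fold higher. With any count in every 14d library and none elsewhere there were 11 names. Such a floor allows for counting error alone, as no molecular identifiers were used.

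The 3 libraries of 14d differed among themselves. In the 15 peaks of at least 100 CPM the highest 14d library was 1.24 to 4.63 times the lowest (median 1.66), and in the 10 dips 1.27 to 1.81 times (median 1.48). Replicate 1 was the highest of the 3 in 13 of those 15 peaks and in 34 of all 44, and replicate 2 the lowest in 10 of 10 dips. Without replicate 1, 24 peaks and 17 dips were found in place of 44 and 11. Among the other ages, 28d replicate 1 stood apart from its age mates. It had 421 names with a count and a TMM factor of 0.953, while 28d replicates 2 and 3 had 323 and 303 names and factors of 0.516 and 0.512. Margins that it sets need not hold for the other 28d livers.

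The dips included miRNAs known from hepatocytes, smooth muscle and blood cells. miR-148a-3p, an abundant hepatocyte miRNA known in mice to act on the LDL receptor, was at 43396, 37371 and 49376 CPM in the 14d livers, against 82452 to 498335 CPM (median 246471) in the others. It fell 4.86-fold (log2 fold change -2.28 ± 0.29 SE, adjusted p = 0.000631). It took up 5.66 to 6.41% of all counts at 14d and 15.8 to 25.7% in all others, so the dip does not depend on TMM. miR-101-3p, known to repress EZH2 in human cells, was at 2043, 1482 and 1538 CPM at 14d, against 3757 to 15728 CPM (median 13353) in the others. It fell 5.40-fold (log2 fold change -2.43 ± 0.20 SE, adjusted p = 8.31e-05), with the smallest adjusted p of all dips.

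The hepatocyte-enriched list (miR-148a, miR-101, miR-194 and miR-215) had 4 of 6 tested members lower and 1 higher, beside 15.9% lower and 24.1% higher over all tested miRNAs, with a median log2 fold change of -2.34, against 0.37 for all tested miRNAs. With the total count 3 were lower and 1 higher (6.38% and 34.5% over all). Its summed level was 39300.5 to 51248 CPM at 14d and 86985 to 512929 CPM elsewhere, and miR-148a-3p made up 94.9% of it. The member that was higher is the minor arm of miR-148a. miR-215-5p was at 48.1, 51.3 and 48.0 CPM at 14d, against 18.2 to 3327 CPM (median 373) in the others. It was lower by the test (adjusted p = 0.0405) but no dip, since all 1d livers lay below 14d, and the call ended in 16 of 25 settings.

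miR-143-3p, known from vascular smooth muscle in mice, was at 16984, 16457 and 26206 CPM in the 14d livers, against 36762 to 235777 CPM (median 136307) in the others. It fell 5.52-fold (log2 fold change -2.46 ± 0.43 SE, adjusted p = 0.00194). The 1d livers were the nearest, at 36762 to 45292 CPM. miR-145-3p, from the hairpin next to it in mammals, was at 48.1, 42.3 and 61.9 CPM at 14d, against 64.8 to 1386 CPM (median 453) in the others. It fell 6.02-fold (log2 fold change -2.59 ± 0.39 SE, adjusted p = 0.000924), and its gap to the 1d livers was the narrowest of all dips, with the lowest other library 1.05 times the highest 14d library. Against 1d alone miR-145-3p did not pass (log2 fold change -0.42, adjusted p = 0.465). In the mesenchymal list 3 of 8 tested arms were lower and 2 higher, beside 15.9% and 24.1% of all tested miRNAs. With the total count 3 were lower and 3 higher, beside 6.38% and 34.5% of all. Its summed level was 28702 to 42523 CPM at 14d and 48156 to 268826 CPM elsewhere. miR-143-3p made up 80.7% of it, none of its members was at 0 at 14d, and the part of smooth muscle or stellate cells was not tested. miR-199-3p of the same list, at 6772, 7376 and 8157 CPM at 14d, against 8607 to 31019 CPM (median 26392) in the others, fell 2.44-fold (log2 fold change -1.29 ± 0.29 SE, adjusted p = 0.00601) but overlapped the other libraries in total-count CPM.

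**Figure D3:**
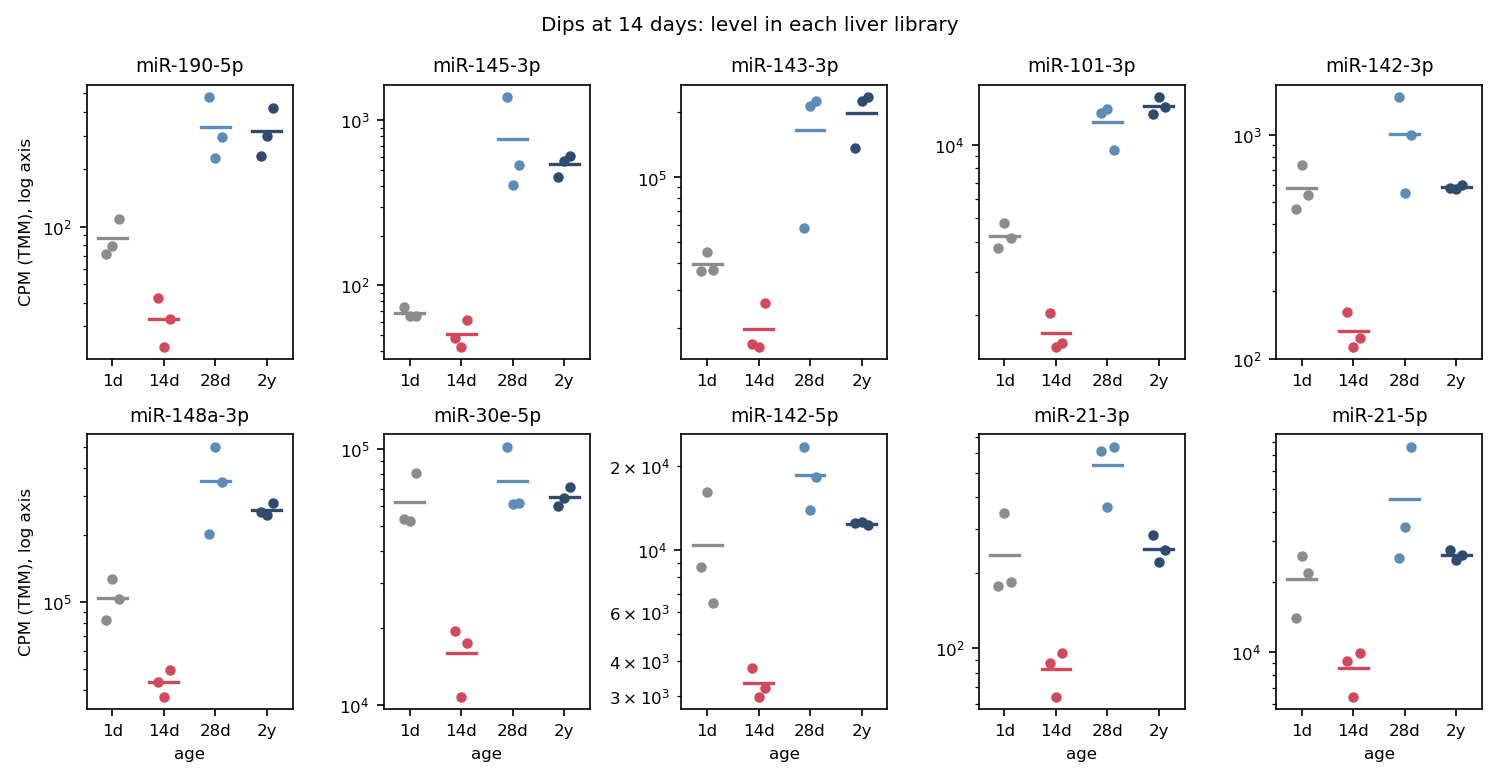
Level of each of 10 dips (CPM, log axis) in every library, by age. Points are single livers and horizontal lines the means of 3, and the 3 livers of 14d lie below all 9 others in each panel, with the 1d livers the nearest in miR-145-3p.

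Both arms of miR-142, a miRNA of blood-forming cells, were dips. miR-142-5p was at 3802, 2992 and 3210.0 CPM at 14d, against 6484 to 23462 CPM (median 12594) in the others. It fell 4.02-fold (log2 fold change -2.01 ± 0.30 SE, adjusted p = 0.000875). miR-142-3p was at 163, 113 and 124 CPM at 14d, against 469 to 1481 CPM (median 578) in the others, and fell 5.26-fold (log2 fold change -2.40 ± 0.32 SE, adjusted p = 0.000631). Here the 14d livers lay low against every age, with means of 582, 133, 1012 and 583 CPM at 1d, 14d, 28d and 2y. Over the leukocyte list of miR-142, miR-146 and miR-155, 4 of 9 tested arms were lower and 1 higher, beside 15.9% and 24.1% of all tested miRNAs. By the total count 2 were lower and 3 higher, beside 6.38% and 34.5% of all. Its summed level was 9816 to 17243 CPM at 14d and 16513 to 94389.9 CPM elsewhere, and none of its members was at 0 at 14d. miR-146c-5p, the most abundant, was at 8432, 5426 and 11728 CPM at 14d, against 8184 to 55213 CPM (median 24378) in the others. It fell 2.68-fold (log2 fold change -1.42 ± 0.32 SE, adjusted p = 0.00601), but lost its call with the total count (adjusted p = 0.0755) and overlapped the 1d livers. miR-155-5p, induced in activated immune cells of mammals, averaged 71.1 CPM at 14d and 38.2 CPM over the other libraries and did not pass (adjusted p = 0.138), but passed as higher with the total count (adjusted p = 0.0106). The part of blood cells in these levels was not tested.

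Both arms of miR-21 were dips as well. miR-21-5p, which rises in growing and injured mammalian liver, was at 9167, 6446 and 9967 CPM in the 14d livers, against 14081 to 76136 CPM (median 25752) in the others. It fell 3.40-fold (log2 fold change -1.77 ± 0.35 SE, adjusted p = 0.00349). miR-21-3p was at 87.6, 64.1 and 95.8 CPM at 14d, against 178 to 637 CPM (median 283) in the others, and fell 3.84-fold (log2 fold change -1.94 ± 0.30 SE, adjusted p = 0.00104). The highest of the other libraries in both arms was 28d replicate 3.

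miR-30e-5p was among the most abundant miRNAs of all other ages. It was at 19468, 10757 and 17374 CPM at 14d, against 52325 to 101928 CPM (median 61334) in the others. It fell 4.23-fold (log2 fold change -2.08 ± 0.28 SE, adjusted p = 0.000631), with means of 62054, 15866, 74762 and 65044 CPM at 1d, 14d, 28d and 2y. miR-30a-5p, at 21115, 15425 and 22768 CPM at 14d, against 14529 to 63992 CPM (median 57245) in the others, fell 2.02-fold (log2 fold change -1.02 ± 0.18 SE, adjusted p = 0.00232), a call lost with the total count (adjusted p = 0.158), and the 1d livers lay within or below the 14d range. miR-30d-5p was at 88157, 43182 and 65026 CPM at 14d, against 20478 to 42401 CPM (median 37583) in the others, and rose 1.99-fold (log2 fold change 0.99 ± 0.26 SE, adjusted p = 0.0135). That call ended without 14d replicate 1 (adjusted p = 0.136) or replicate 3 (adjusted p = 0.0502), and also without 28d. miR-30d-5p was no peak, since 14d replicate 2 lay below 1d replicate 3 in total-count CPM. Of 8 tested arms of the family 2 were higher and 3 lower, beside 24.1% and 15.9% of all tested miRNAs.

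miR-190 lies in an intron of the talin gene TLN2 in human. miR-190-5p was at 42.2, 23.5 and 32.9 CPM in the 14d livers, against 71.5 to 478 CPM (median 236) in the others. It fell 6.39-fold (log2 fold change -2.67 ± 0.34 SE, adjusted p = 0.000631), the largest fall among the dips, with the 1d livers nearest to 14d. Its other arm miR-190-3p was at 3.28, 4.27 and 6.73 CPM at 14d, against 11.5 to 75.5 CPM (median 30.4) in the others, and was the single dip under 100 CPM.

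A stricter question is whether 14d differed from each of the other ages taken singly. The 3 comparisons share the 14d libraries, so they are not independent. With the largest of the 3 p-values per miRNA adjusted over all 345, 2 miRNAs (0.580%) were above every other age and 6 (1.74%) below. Those above were let-7d-3p (adjusted p = 0.00863) and miR-214-3p (adjusted p = 0.0459). let-7d-3p exceeded 1d by 2.33, 28d by 2.77 and 2y by 3.41 on the log2 scale. Those below were miR-30e-5p, miR-101-3p and miR-142-3p (adjusted p = 0.00863 each), miR-142-5p (adjusted p = 0.0322), and miR-21-3p and miR-19b-3p (adjusted p = 0.0459 each). miR-19b-3p, a member of the miR-17-92 cluster, was at 568, 342 and 509.6 CPM at 14d, against 1111 to 2444 CPM (median 1401) in the others, and fell 3.32-fold (log2 fold change -1.73 ± 0.33 SE, adjusted p = 0.00288). It was no dip, since the groups overlapped in total-count CPM. The counts of this stricter test in edgeR moved widely: without 14d replicate 2 they were 0 and 0, and without 28d replicate 1 they were 7 above and 20 below.

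The miR-17-92 cluster drives cell growth in mammals. Of 19 tested arms of it and its paralogs 3 were higher and 7 lower at 14d, beside 24.1% and 15.9% of all tested miRNAs, with a median log2 fold change of -0.73. Scaled by the total count, 4 were higher and 1 lower, beside 34.5% and 6.38% of all. miR-92-3p was at 74911, 34504 and 22416 CPM at 14d, against 3208 to 22504 CPM (median 10416) in the others. It rose 4.08-fold (log2 fold change 2.03 ± 0.34 SE, adjusted p = 0.00158), or 2.63-fold without 14d replicate 1. It was no peak, since 14d replicate 3 fell just short of 1d replicate 2 in CPM. By share of all counts, 14d replicate 3 (2.91%) lay below every 1d liver (3.04 to 3.64%). miR-20a-5p was at 371, 247 and 296 CPM at 14d, against 463 to 965 CPM (median 659) in the others. It fell 2.31-fold (log2 fold change -1.21 ± 0.22 SE, adjusted p = 0.00225), and with the total count it did not pass (adjusted p = 0.0975). It was no dip, since the groups overlapped in total-count CPM.

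Most called miRNAs were neither peaks nor dips: 39 of the 83 higher and 44 of the 55 lower ones overlapped another age in 1 of the scalings or both. The miR-29 family, whose targets include collagen mRNAs in mammals, shows how. miR-29a-3p averaged 146, 276, 1027 and 1880.1 CPM at 1d, 14d, 28d and 2y, and miR-29b-3p 21.4, 38.5, 215 and 318 CPM. Both were lower than the mean of the other ages (adjusted p = 0.00384 and 0.00397) while every 14d liver lay above every 1d liver. Neither passed with the total count (adjusted p = 0.151 and 0.0915). miR-33-5p, which lies in the intron of a sterol regulator gene in vertebrates and represses cholesterol export, was at 29.3, 16.1 and 11.7 CPM at 14d, against 25.3 to 289.8 CPM (median 121) in the others, and fell 4.98-fold (log2 fold change -2.32 ± 0.41 SE, adjusted p = 0.00197). It overlapped the 1d livers. miR-375-3p, a miRNA of pancreatic islets, was at 552, 469.5 and 351 CPM at 14d, against 39.1 to 576 CPM (median 209) in the others, and rose 2.68-fold (log2 fold change 1.42 ± 0.44 SE, adjusted p = 0.0294), with 28d replicate 3 above all 14d livers. Its call ended without any single 14d library (adjusted p = 0.128, 0.109 and 0.0564 without replicates 1, 2 and 3).

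The endothelial miRNA miR-126 was lower on both arms, miR-126-5p at 5845, 6156 and 7962 CPM at 14d, against 6585 to 26942 CPM (median 15909) in the others, and miR-126-3p at 10384, 10025 and 12725 CPM at 14d, against 10377 to 23305 CPM (median 16408) in the others. Neither passed with the total count (adjusted p = 0.133 and 0.811), and the call of miR-126-3p also ended without 14d replicate 1 (adjusted p = 0.0580) or replicate 2 (adjusted p = 0.0837). The summed level of this list was 16181 to 20686 CPM at 14d and 18547 to 46447 CPM elsewhere. For the muscle list 0 of 6 arms passed in either direction, beside 40.0% of all tested miRNAs, its summed level was 1735 to 4136 CPM at 14d and 491 to 3693 CPM elsewhere, and miR-1a-5p was at 0 in every 14d library. With the total count 3 of its arms were higher, beside 34.5% of all. In the pancreas list 1 of 4 arms was higher and 0 lower, beside 24.1% and 15.9% of all tested miRNAs, with 361 to 565 CPM at 14d and 42.0 to 745 CPM elsewhere.

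**Figure D4:**
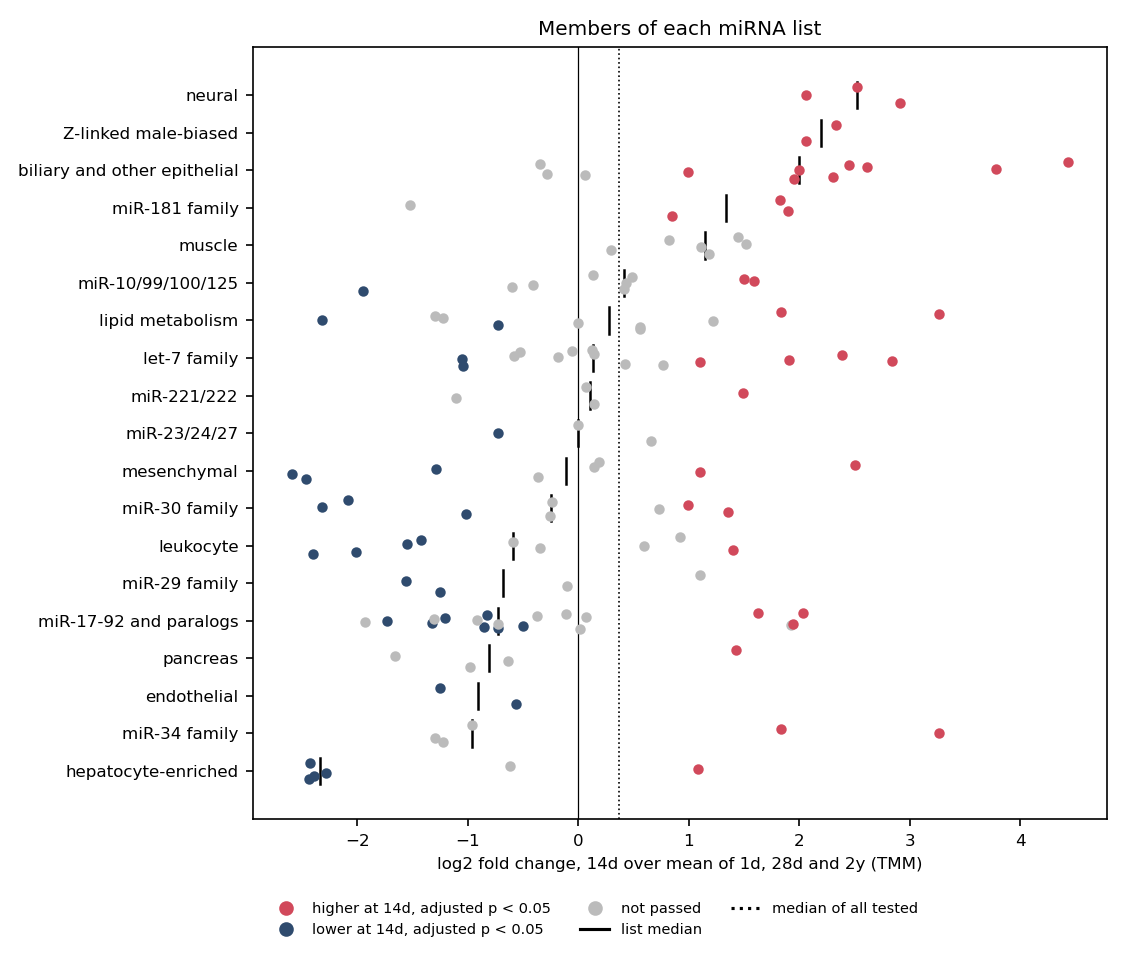
Log2 fold change of every tested member of 19 miRNA lists, 14d over the mean of 1d, 28d and 2y. Points are miRNAs, short black lines the list medians and the dotted line the median of all 345, and the epithelial list has 8 of 11 members higher while the hepatocyte-enriched list has 4 of 6 lower.

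The remaining lists of the plot stand beside 24.1% higher and 15.9% lower over all tested miRNAs. The miR-34 family had 2 of 5 tested arms higher and 0 lower, miR-221 and miR-222 had 1 of 4 higher and 0 lower, and the group of miR-23, miR-24 and miR-27 had 0 of 3 higher and 1 lower. The higher arm of miR-222, miR-222a-3p, lay below every 1d liver. It took up 0.655 to 1.05% of all counts at 14d and 1.89 to 3.78% at 1d, against 0.0266 to 0.213% at 28d and 2y. The lipid metabolism list of miR-33, miR-103, miR-107, miR-27 and miR-34 had 2 of 10 higher and 2 lower. Its 2 higher arms are those of the miR-34 family again, miR-34b-5p and miR-34c-5p. They averaged 2.69 and 7.63 CPM at 14d, and 0.276 and 2.14 CPM over the other libraries. miR-34a-5p, 84.6% of that family's counts, did not pass (adjusted p = 0.443). miR-103-3p and miR-107-3p averaged 2845 and 2821 CPM at 14d and 1950 and 1939 CPM elsewhere, so reads may be shared between them.

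The rule of no overlap draws a sharp line through values that lie close together. Just inside it among the higher miRNAs of at least 100 CPM, the lowest 14d library was 1.01 times the highest other library for miR-2954-3p, 1.10 times for miR-30c-3p and 1.15 times for let-7f-5p, taking the smaller ratio of the 2 scalings. Just outside, it was 0.989 times for miR-30d-5p, 0.975 times for miR-460a-5p and 0.927 times for miR-140-3p. For the lower miRNAs of at least 100 CPM the lowest other library was 1.05 times the highest 14d library for miR-145-3p, 1.13 times for miR-21-3p and 1.15 times for miR-21-5p. Just outside, it was 0.997 times for miR-301b-3p, 0.894 times for miR-199-3p and 0.864 times for miR-33-5p.

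Both arms were tested for 91 hairpins. Both were higher in 11, both lower in 8, only 1 arm passed in 42 (the difference between the arms was not tested), neither in 24, and in 6 hairpins the arms moved in opposite directions (miR-7a, miR-18b, miR-30d, miR-140, miR-145 and miR-148a). Both arms were peaks in 3 hairpins (let-7d, miR-128 and miR-200b) and both dips in 3 (miR-21, miR-142 and miR-190).

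The share of one arm in the counts of its own hairpin does not depend on library size. In the 83 hairpins with a count in every library, the 14d livers lay beyond all others in that share in 20 (24.1%), 10 (12%) toward the 5p and 10 (12%) toward the 3p arm. This was counted and not tested. For miR-145 the 3p arm made up 2.25 to 2.72% at 14d, against 8.94 to 38.9% (median 26.0%) in the other livers. miR-145-5p was at 2015, 1839.8 and 2210.4 CPM at 14d, against 246 to 2601 CPM (median 839) in the others, so the 3p arm alone was a dip, and the rise of the 5p arm (adjusted p = 0.0491) lost its call in 16 of 25 settings.

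In miR-30d the 3p arm was at 0.0883 to 0.108% of the hairpin at 14d, against 0.330 to 4.83% in the others. miR-30d-3p was at 95.6, 41.7 and 57.5 CPM at 14d, against 115 to 1199 CPM (median 236) in the others, and fell 4.98-fold (log2 fold change -2.32 ± 0.29 SE, adjusted p = 0.000631). It was no dip, since the groups overlapped in total-count CPM. For miR-140, known from cartilage in mice, the minor 5p arm made up 0.589 to 0.977% at 14d, against 2.99 to 5.38% in the others. miR-140-3p rose 2.09-fold (adjusted p = 0.00146) and miR-140-5p fell 2.33-fold (adjusted p = 0.00111). The fall of the 5p arm did not pass with the total count (adjusted p = 0.0694).

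In other hairpins the minor arm took a larger share at 14d. The 3p arm of miR-30e, whose 5p arm is a dip, made up 6.75 to 7.78% at 14d, against 1.38 to 2.90% in the others. miR-30e-3p itself was at 1408, 834 and 1466 CPM at 14d, against 1127 to 1824 CPM (median 1538) in the others, and did not pass (adjusted p = 0.327). Its counts lie within 10% of those of miR-30a-3p in every library, so reads may be shared between them. The minor 5p arm of miR-143 made up 0.201 to 0.315% at 14d, against 0.0289 to 0.161% in the others, and miR-143-5p did not pass (adjusted p = 0.199). The 3p arm of miR-33 held 70.8 to 81.4% at 14d and 2.24 to 51.8% elsewhere, so that it outnumbered the 5p arm in each 14d liver. miR-33-3p was at 71.0, 59.0 and 51.3 CPM at 14d, against 3.56 to 312 CPM (median 8.56) in the others, and did not pass (adjusted p = 0.273). Without 28d replicate 1, the highest library, it was 3.83-fold higher and passed (adjusted p = 0.0171). In miR-551b the 5p arm held 55.8 to 63.4% at 14d and 3.20 to 23.2% elsewhere.

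In several peaks the main arm gained on the minor one. The 3p arm of let-7f held 2.32 to 5.49% of its hairpin at 14d, against 14.7 to 30.8% in the others, and let-7f-3p did not pass (adjusted p = 0.0507). In 10 of 25 other settings let-7f-3p passed as lower. The 5p arm of miR-214 held 3.34 to 11%, against 16.1 to 31.8%, and miR-214-5p did not pass (adjusted p = 0.479). In miR-148a the minor 5p arm rose 2.12-fold (adjusted p = 0.00366) at 14d, against the fall of the 3p arm, but its share of the hairpin, 0.554 to 0.964% at 14d, overlapped the others at 0.0156 to 0.831%. miR-148a-5p averaged 665, 352, 127 and 54.2 CPM at 1d, 14d, 28d and 2y, and each 14d liver lay below each 1d liver. Its call ended without 28d (adjusted p = 0.0891), without 2y (adjusted p = 0.455), with no filter and with 1 mean for the 9 other libraries. miR-101-5p, the minor arm of miR-101, averaged 50.3, 1.36, 2.03 and 3.49 CPM at 1d, 14d, 28d and 2y, and was lower by the test (adjusted p = 0.000631), a call that ended without 1d.

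For miR-7a and miR-18b the 3p arm took a larger share in each 14d liver than in any other. It held 61.1 to 74.9% of miR-7a at 14d, against 18.7 to 60.4% in the others, and 14.2 to 23.9% of miR-18b at 14d, against 0.478 to 7.60%. In miR-7a, known from islets and neurons in mammals, miR-7a-5p fell 3.22-fold (adjusted p = 0.0159) and miR-7a-3p rose 1.42-fold (adjusted p = 0.0417). The call of miR-7a-5p ended with the total count (adjusted p = 0.119) and without 14d replicate 2 (adjusted p = 0.0664) or replicate 3 (adjusted p = 0.0680). In miR-18b, miR-18b-5p fell 2.50-fold (adjusted p = 0.0132) and miR-18b-3p rose 3.83-fold (adjusted p = 0.0353). The call of miR-18b-5p ended with the total count (adjusted p = 0.0915), with 1 mean for the 9 other libraries and without 14d replicate 2 (adjusted p = 0.0514) or replicate 3 (adjusted p = 0.0506), and without 1d its log2 fold change was 0.0355. miR-18b-3p averaged 12.9, 4.8, 0.570 and 0.299 CPM at 1d, 14d, 28d and 2y, and without 14d replicate 1 it was 2.07-fold higher and did not pass (adjusted p = 0.297). The calls of the 3p arms ended in 18 of 25 settings for miR-7a-3p and in 16 of 24 for miR-18b-3p.

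**Figure D5:**
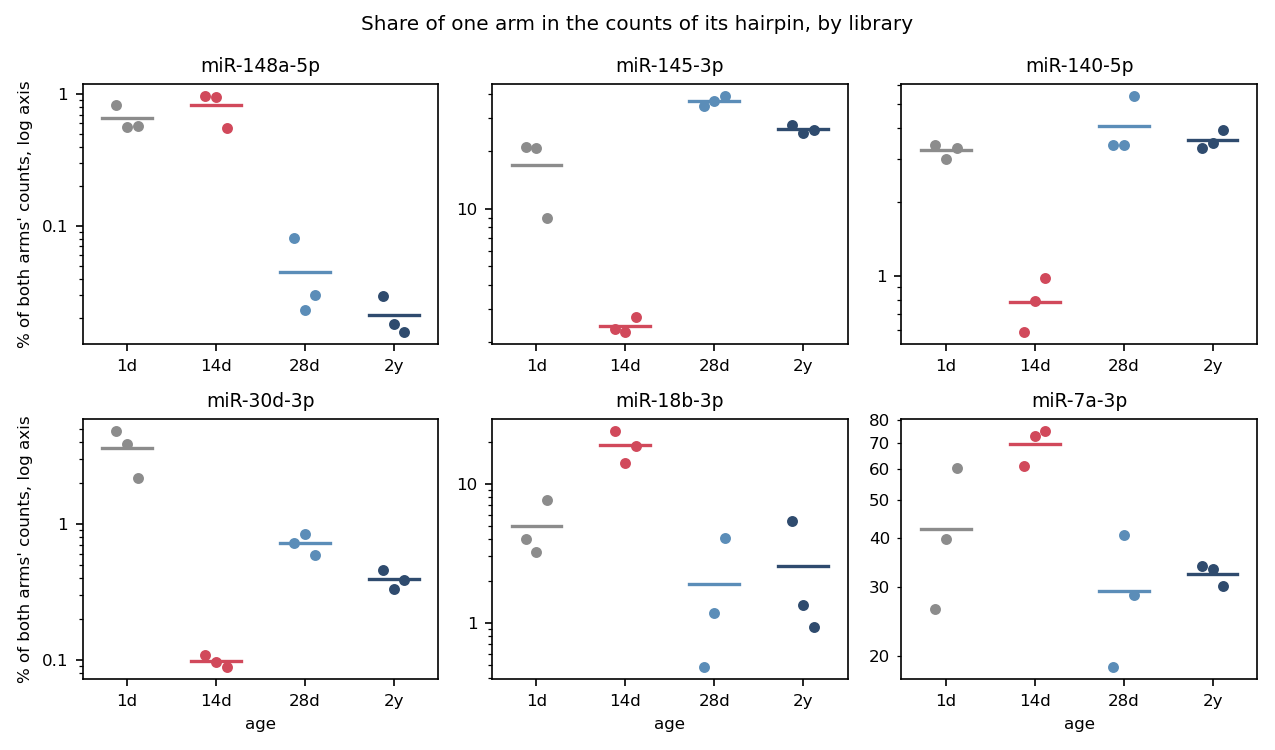
Share of one arm in the counts of its hairpin (percent, log axis) in every library, by age. Points are single livers, and in miR-145, miR-140 and miR-30d the shown arm is lowest in the 3 livers of 14d, while in miR-18b and miR-7a it is highest.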

How the data were processed

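Small RNA from 12 pigeon livers was sequenced as 50 nt single reads, per the labels' protocols, after gel selection by length. Each value of the deposited table is an unscaled count of reads for 1 mature miRNA in 1 library, per the file headers, and 0 columns went unused. The submitters' processing notes name Bowtie. Its version, the genome build, the counting program and how reads shared by several names were treated are details not given in the sources used here. Members of some families were not analysed here.

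Counts were fitted in edgeR 4.0.16 (R 4.3.3) over all 12 libraries with 1 mean per age, filterByExpr by age, TMM and robust quasi-likelihood, with p-values adjusted over the 345 miRNAs kept. The contrast was 14d minus the mean of 1d, 28d and 2y, on the log scale. Adjusted p-values of single miRNAs come from this fit unless another test is named. SE is an approximate standard error, the size of the log2 fold change divided by the square root of the F statistic of its test. TMM factors were 1.30 to 1.56 at 14d and 0.512 to 1.96 elsewhere. A count of 0 allows up to 3 counts, or 0.326 to 1.90 CPM depending on the library. The labels' protocols give 1 bird per library. Counts of libraries of one age differed by more than counting noise, so no library looked like another deposited again.

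The naming rule takes the 10 peaks and 10 dips with the largest fold change at 100 CPM or more, their other arms, from each list up to 2 members with the lowest adjusted p, the 5 most abundant miRNAs, both arms of miR-2954, and names counted at 14d alone. Of these the text prints a part. The other peaks, the arms called in opposite directions, miR-19b-3p, miR-30a-5p, miR-146c-5p, miR-182-5p, miR-183-5p, miR-215-5p, miR-33-3p, miR-199-3p, miR-155-5p, let-7a-5p, miR-460a-5p and miR-301b-3p were named after their values were seen. So were miR-199-5p, miR-200a-3p, miR-200a-5p, miR-429-3p, miR-205b-5p, let-7a-3p, let-7e-3p, miR-103-3p and miR-107-3p. The members and all lists were chosen with earlier results of these data known. Alternatives were other scalings, DESeq2 1.42.0, limma 3.58.1 voom, other filters, a replicate block, 1 mean for the 9 other libraries, and the omission of single libraries, whole ages or the most abundant miRNA. The scripts were tested on simulated counts.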

Additional observations from a re-analysis of the deposited data

How the results depend on the processing

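All 10 named dips of at least 100 CPM kept their calls under all 25 settings, and so did 8 of the 10 peaks with the largest changes. The exceptions were miR-205a-5p, which lost its call with 1 mean for the 9 other libraries, and miR-9-5p, which lost it under 5 settings. These peaks and dips were picked for large changes and full separation in the same libraries, so their kept calls are no independent support. Only direction and call were followed, not whether each miRNA stayed a peak or a dip. Over the miRNAs followed through these settings, most of those named, 1616 values under an alternative kept direction and call, 179 lost the call, 15 gained one and 8 changed sign. Beside the losses given with the results, calls ended with no filter on low counts for miR-9-3p, miR-181a-3p, miR-1451-5p, miR-1467-5p, miR-200b-5p, miR-183-5p, miR-30d-5p, miR-126-3p and miR-140-3p. With 1 mean for the 9 other libraries they ended for miR-181a-3p, miR-30c-3p, miR-140-3p, miR-140-5p, miR-29a-3p, miR-29b-3p, miR-126-3p, miR-30a-5p, miR-146c-5p, miR-199-3p and miR-101-5p, and without 2y for miR-9-3p, miR-181a-3p, miR-29a-3p, miR-29b-3p and miR-126-3p. The call of miR-1791-3p ended with DESeq2, that of miR-126-3p with upper-quartile factors and that of miR-301b-3p with the total count. Not every loss is listed.

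Of the counts, the 83 miRNAs higher at 14d became 38 with no filter on low counts, 48 with the stricter filter (at least 100 counts in 3 libraries), 35 with 1 mean for the 9 other libraries and 54 without 2y. Beside them 43 were lower with no filter, 54 with the stricter one and 46 without 14d replicate 1. The 55 lower ones became 22 with the total count and 25 with 1 mean. Leaving out single libraries gave 35 to 77 higher and 37 to 59 lower, the lowest without 14d replicate 1 and 14d replicate 2. The 44 peaks became 23 with no filter, 24 with the stricter one, 28 with 1 mean and 73 without 1d, and 24 to 45 without single libraries. The 11 dips became 18 without 1d and 21 without 28d, and 11 to 17 without single libraries. In these the lowest count of peaks and the highest of dips came without 14d replicate 1.

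The 2 miRNAs above each other age became 7 with the total count, 6 with upper-quartile factors, 15 with DESeq2, 12 with limma voom, 0 with no filter (edgeR) and 8 with the stricter one. They became 40 without 1d, 16 without 28d and 1 without 2y. The 6 below became 14 with relative log expression, 3 with the total count, 26 with DESeq2, 20 with the stricter filter, 10 without the most abundant miRNA, 38 without 1d and 30 without 28d. Leaving out single libraries gave 0 to 7 above and 0 to 20 below.

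The excess of 123 names with a count was 107 without 28d (adjusted p = 0.119), 112 without 2y (adjusted p = 0.179) and 113 to 131 without single libraries (adjusted p 0.0303 to 0.0909, exact permutation test). The value of 0.0909 came without each of the 14d libraries. Leaving out libraries leaves fewer choices, so the smallest p that this test can give is larger, and a lost call there cannot be read as a weaker difference. The difference in the share of the 10 most abundant miRNAs was -12.0 percentage points without 1d and then passed (adjusted p = 0.0298). Differences that passed nowhere also changed sign: that in total count was 377639 without 2y and -1576810 to 96568 without single libraries, and that in the share of predicted names -0.0107 percentage points without 2y and -0.00216 to 0.0122 without single libraries. On the log2 scale miR-214-5p was at -0.00534 with no filter, -0.0226 without 28d replicate 1 and -0.0387 without 1d. let-7f-3p was at 0.000828, miR-143-5p at 0.21, miR-30e-3p at 0.33 and miR-126-3p at 0.0565 with the total count, and miR-18b-5p at 0.0355 without 1d. The causes were not tested.

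The replicate numbers were not taken as pairs in the main fit. Of 18 pairs with the same number 6 had correlated deviations above 0.1, and 5 of 12 libraries correlated best with their own number. The correlations were -0.133 to 0.410 for the same number and -0.368 to 0.295 for different numbers. Pairing or a shared batch was not tested. With the replicate block 62 miRNAs were higher and 50 lower, 36 were peaks and 11 dips, and 2 lay above and 3 below each other age. The block ended the calls of miR-145-5p, miR-1791-3p, miR-7a-3p, miR-18b-3p, miR-215-5p and miR-460a-5p (adjusted p 0.0634 to 0.0808) and of no other miRNA followed through the settings.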
